A study of Homo sapiens with 9 samples.

Results

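RNA recovered with BCLAF1 by RNA immunoprecipitation (RIP) was compared with the total RNA of the same kind of cells, to describe which transcripts were over- or under-represented in the precipitate. The comparison used 6 of the 9 libraries of the series, 3 labelled RIP and 3 labelled shCONTROL, and every entry of the deposited table that carries a human gene identifier, 56541 genes in all. Of these, 16727 had enough counts to be tested. The 3 libraries of cells with a hairpin against BCLAF1 were not used.

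The cells were MOLM-13, an established human acute myeloid leukaemia line. Cells of both groups carried the control hairpin (genotype shCONTROL) and received doxycycline at 200 ng/µL for 4 days, so both groups share the drug and the hairpin. The shCONTROL group is ordinary RNA-seq of total RNA, and the RIP group is RNA from BCLAF1 precipitates of shCONTROL cells. More cells were collected for a RIP sample (15e6) than for an RNA-seq sample (2e6). The labels name no mock or isotype precipitation, so RNA that binds beads or antibody alone cannot be told apart from RNA that binds BCLAF1. All samples carry the same batch label, and each group is 1 cell line with 3 replicates. Nothing in the labels says that the replicates were separate cultures, so each p-value measures only the spread between these samples.

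BCLAF1 is a nuclear protein rich in arginine and serine that is found with splicing factors and mRNA export factors, together with its paralogue THRAP3. It was first described as a partner of BCL2 family proteins, and it has been linked to the splicing and export of transcripts of DNA repair genes. In a RIP, an antibody pulls down the protein with the RNA in its complexes, and a transcript over-represented against the input may be bound directly or through another protein of the complex. A ratio of RIP to input is relative within each library, since the library preparation fixes the total: transcripts that lose share raise the share of all others.

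Library totals ran from 25819144 to 35305650 estimated counts. Levels are given as CPM, counts scaled to the size of each library. Pearson's correlation of log2 CPM across genes was 0.960 to 0.962 between shCONTROL libraries, 0.937 to 0.946 between RIP libraries, and 0.848 to 0.892 between groups. Genes are not independent, so these values only describe how alike the libraries were. RIP replicate 1 was the nearest to the shCONTROL libraries and RIP replicate 3 the farthest. Of the 12 myeloid markers checked, all 12 were tested, with a summed level of 3318 to 3467 CPM in shCONTROL and 2518 to 2840 CPM in the RIP. Markers of fibroblasts were at 0 in all libraries, and 4 of 5 T cell markers and 3 of 5 B cell markers were at or under the floor of 3 counts in every shCONTROL library. All 6 erythroid markers were at 0 in shCONTROL, while HBA2, an alpha-globin, had 37.7, 0 and 55.7 CPM in RIP replicates 1 to 3 and HBA1 had 2.51, 1.22 and 2.58 CPM. HBB, ALAS2 and KLF1 were at 0 in all 6 libraries. In bulk RNA, fewer cells of a type and less RNA per cell cannot be told apart.

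The mRNA of BCLAF1 itself was enriched in its own precipitate. BCLAF1 (chromosome 6, 136256627 to 136289846, hg38) stood at 319, 317 and 306 CPM in the shCONTROL libraries and at 1107, 1041 and 999 CPM in the RIP libraries. The groups did not overlap, which gave 1.74 on the log2 scale (SE 0.10, adjusted p = 2.19e-04, from edgeR's quasi-likelihood test, adjusted over all tested genes after Benjamini and Hochberg). The mRNA of the paralogue THRAP3 (chromosome 1, 36207637 to 36305357) rose less, from 268, 246 and 231 CPM to 469, 500 and 473 CPM (log2 fold change 0.95, SE 0.10, adjusted p = 7.00e-04). The targeted protein itself was not measured in these files.

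A gene was called higher or lower when its adjusted p was under 0.05, and enriched or depleted when its log2 fold change was also at least 1 in size. By the second rule 1853 genes (11.1% of those tested) were enriched and 2281 (13.6%) were depleted. By the first, 4107 (24.6%) were higher and 4124 (24.7%) lower. The median log2 fold change over all tested genes was -0.05. The depleted side reached farther: 655 genes had a log2 fold change of -2 or less, against 325 with 2 or more. In 421 of the called genes 1 group was off, meaning at most 3 counts in each of its 3 libraries. They comprised 158 enriched genes off in shCONTROL and 263 depleted genes off in the RIP. Their fitted fold changes depend on the prior count, so folds for such genes are given as lower bounds against the floor.

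**Figure D1:**
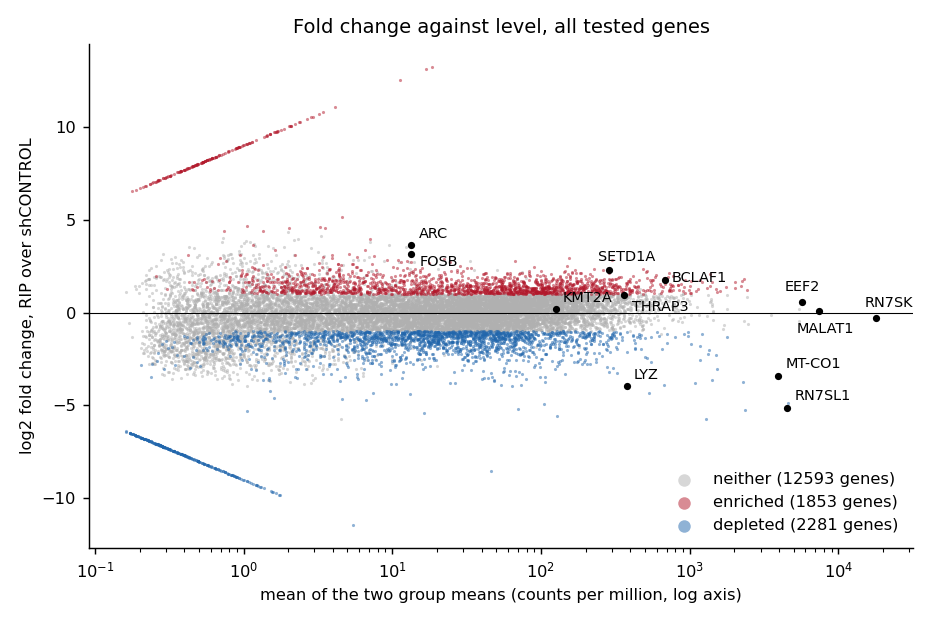
Log2 fold change of RIP over shCONTROL (vertical axis) against the mean of both group means in CPM (horizontal log axis) for the 16727 tested genes, with 1853 enriched genes in red and 2281 depleted genes in blue. The diagonal streaks at the left are genes off in 1 group, whose fitted values have no fixed size, and MT-CO1, among the most abundant RNAs, lies at -3.39.

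The strongest depletion was of RNAs that are made or matured outside the route of polyadenylated nuclear mRNA. All 13 mRNAs encoded by the mitochondrial genome were depleted, with a median log2 fold change of -3.31. MT-CO1, which encodes a core subunit of cytochrome c oxidase, had 7549, 6782 and 7167 CPM in shCONTROL and 761, 683 and 605 CPM in the RIP. This gave a log2 fold change of -3.39 with an SE of 0.15 (adjusted p = 1.68e-04), and no RIP library came near a control. The smallest change of the class was that of MT-ND3 at -1.81 and the largest that of MT-ND2 at -4.34. Together the 13 mRNAs made up 2.77% ± 0.151 of all shCONTROL counts (SD, n = 3) but 0.289% ± 0.0782 of all RIP counts (SD, n = 3).

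Structured RNAs transcribed by RNA polymerase III were depleted more unevenly between the RIP libraries. RN7SL1 (chromosome 14, 49586580 to 49586878), the RNA of the signal recognition particle, stood at 8408, 8537 and 9423 CPM in shCONTROL and at 38.1, 55.7 and 669 CPM in the RIP. RPPH1, the RNA of ribonuclease P, went from 9332, 9158 and 8032 CPM to 90.1, 121 and 713 CPM. RMRP, the RNA of the related RNase MRP, went from 2468, 2449 and 2620 CPM to 18.6, 19.1 and 106 CPM. RIP replicate 3 kept the most of all 3 RNAs, yet it stayed far below every control. The log2 fold changes were -5.11, -4.84 and -5.71, and without RIP replicate 3 they were -7.55, -6.39 and -7.06. RN7SK, the scaffold RNA that holds the elongation factor P-TEFb inactive, did not follow. It had 19029, 19474 and 20237 CPM in shCONTROL and 14817, 11583 and 22158 CPM in the RIP, and the groups overlapped (log2 fold change -0.27, SE 0.26, adjusted p = 0.421). It was the most abundant RNA of both groups. Of the 8 structured RNAs tested, the other 7 were depleted, including RNY1 at -4.37 (-5.60 without RIP replicate 3) and the telomerase RNA TERC at -1.71.

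Among small nucleolar and Cajal body RNAs, which guide the modification of ribosomal and spliceosomal RNA, 38 of 89 tested (42.7%) were depleted and 3 enriched. The kinds differed in their counts. Of 12 scaRNAs 10 were depleted, of 40 H/ACA box snoRNAs 21, and of 37 C/D box snoRNAs 7. Most C/D box snoRNAs were therefore not called, and their median log2 fold change was -0.46. All 3 enriched RNAs were of the C/D box kind, and SNORD3A had the lowest value of that kind. SNORD3A, the U3 RNA needed to process the ribosomal precursor, fell from 222, 262 and 267 CPM to 4.59, 3.02 and 8.18 CPM. SNORA73A fell from 78.7, 105 and 93.3 CPM to 0.266, 0.139 and 0.335 CPM (log2 fold change -8.52, SE 0.27, adjusted p = 1.42e-04). SCARNA10 fell by 5.18 on the log2 scale. In all 3 RNAs every RIP library lay far below every control. Of 32 spliceosomal snRNAs 15 (46.9%) were depleted, beside 13.6% of all genes. RNU4-1 fell from 28.9, 28.1 and 26.9 CPM to 8.62, 7.09 and 9.09 CPM, and the minor spliceosome RNAs RNU11, RNU12 and RNU6ATAC had log2 fold changes of -3.05, -2.81 and -2.69. The value of RNU11 was -3.81 without RIP replicate 1 and that of RNU12 was -3.47 without RIP replicate 3, and with a replicate block 9 snRNAs were depleted.

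Histone mRNAs, which end in a stem-loop in place of a poly(A) tail, were depleted almost throughout. Of 52 tested mRNAs from the replication-dependent histone clusters 46 (88.5%) were depleted, and 49 were lower. The median log2 fold change was -2.11, and it was alike in sign in each RIP library (-2.30, -2.13 and -1.59). H1-5, the most abundant, had 1056, 1024 and 1109 CPM in shCONTROL and 237, 292 and 492 CPM in the RIP (log2 fold change -1.64, SE 0.28, adjusted p = 4.28e-03). The core histones went lower: all 8 tested H3 genes were depleted, with H3C2 at -3.23, and H4C3 reached -3.73. H4C11, H2BC4 and H1-4 were the 3 that passed in neither direction. Histones took 1.32% ± 0.0308 of the counts in shCONTROL and 0.328% ± 0.0916 in the RIP.

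**Figure D2:**
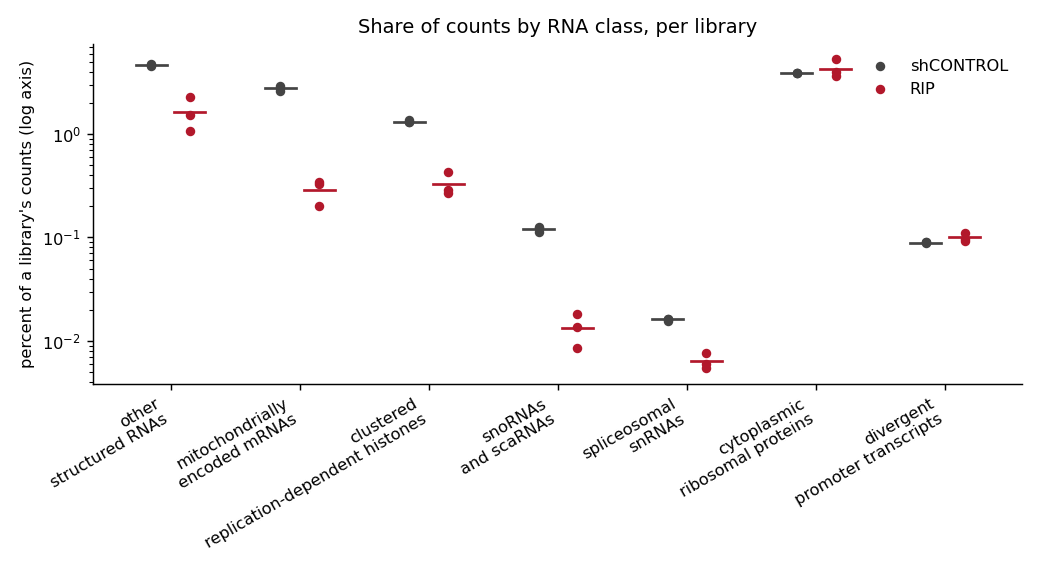
Percent of a library's counts (log axis) taken by 7 RNA classes, each point 1 library and each bar the mean of 3, with shCONTROL in grey and RIP in red. Mitochondrially encoded mRNAs lie at 2.77% and 0.289% on average and histones at 1.32% and 0.328%, while ribosomal protein mRNAs lie at 3.88% and 4.30%.

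Long noncoding RNAs had no common direction. MALAT1, retained in nuclear speckles, had 7039, 8064 and 6490 CPM in shCONTROL and 6246, 9897 and 6576 CPM in the RIP, and the groups overlapped (log2 fold change 0.07, adjusted p = 0.804). NEAT1, the scaffold of paraspeckles, also overlapped between groups, at 404, 611 and 556 CPM against 476, 472 and 228 CPM. OIP5-AS1, a mostly cytoplasmic RNA, was depleted from 420, 419 and 400 CPM to 152, 211 and 88.7 CPM (log2 fold change -1.45, adjusted p = 9.16e-03). Of 212 tested transcripts that run divergently from promoters 50 (23.6%) were enriched, beside 11.1% of all genes, and 9 were depleted, with a median log2 fold change of 0.67. Of the 212, 21 were off in 1 group. Among genes with counts in every library 32 divergent transcripts were enriched, beside 1661 of all 14304 such genes. How many of the 212 entered that fit is not given here, so 32 cannot be read as a share. With a replicate block 26 of the 212 (12.3%) were enriched, beside 9.55% of all genes, a much smaller gap. CEP83-DT was at 0 in every control and at 3.00, 2.47 and 3.12 CPM in the RIP, at least 34.2-fold higher. The most abundant of this list, GARS1-DT, did not differ beyond its spread (65.0, 78.9 and 65.8 CPM against 74.3, 68.3 and 66.7 CPM). Of 523 antisense RNAs 36 (6.88%) were enriched, under the 11.1% of all genes. Depleted antisense RNAs numbered 69 (13.2%), near the 13.6% of all genes. Their count was 43 among genes above 0 throughout, 37 with a replicate block and 111 without RIP replicate 1. In the same fits 2219, 1879 and 2906 of all genes were depleted. How strand was used in counting is not given in the sources used here, so reads of an antisense or divergent RNA cannot be told apart from those of an overlapping gene.

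Among 32 tested genes that host snoRNAs in their introns, 6 (18.8%) were enriched and 3 (9.38%) depleted, beside 11.1% and 13.6% of all genes. Without RIP replicate 1 the counts were 3 enriched and 5 depleted. NOP56 (chromosome 20, 2652632 to 2658393), which encodes a core protein of C/D box particles, rose from 308, 271 and 309 CPM to 976, 868 and 1546 CPM (log2 fold change 1.93, SE 0.24, adjusted p = 1.39e-03). SNHG12 was enriched at 1.73. RACK1, a ribosomal scaffold protein, and SNHG29 were depleted, at -1.05 and -1.3, though RACK1 missed the call without RIP replicate 2. MIR223HG, the host of the myeloid microRNA miR-223, was higher in the RIP, at 739, 555 and 663 CPM against 338, 351 and 338 CPM (log2 fold change 0.93, adjusted p = 1.97e-03), and MIR17HG was depleted at -1.15 (-0.94 without RIP replicate 2). Of 42 tested microRNA hairpin entries 5 (11.9%) were enriched and 7 (16.7%) depleted, near the shares among all genes.

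The mRNAs of cytoplasmic ribosomal proteins split into opposite groups. Of 86 tested, 19 (22.1%) were enriched and 25 (29.1%) depleted, both above the shares among all genes, while their median log2 fold change of -0.27 lay near 0. RPL4 (chromosome 15, 66498015 to 66504855) rose from 1038, 1013 and 993 CPM to 2867, 2749 and 5180 CPM. RPL35A (chromosome 3, 197950190 to 197956610) fell from 522, 497 and 523 CPM to 49.2, 47.2 and 73.5 CPM. Both encode proteins of the large subunit, and their log2 fold changes were 1.83 (SE 0.28; adjusted p = 2.70e-03) and -3.18 (SE 0.20; adjusted p = 2.42e-04). RPL19, RPL23A, RPL5 and RPS6 were also enriched, at 2.05, 1.89, 1.63 and 1.41. RPS29, RPS21, RPL34, RPS2 and RPLP0 were depleted, at -3.17, -2.76, -2.65, -2.37 and -2.13. The large subunit had 12 enriched and 10 depleted of 52, and the small subunit 7 and 15 of 34, a difference that was not tested. RIP replicate 3 held the largest share of these mRNAs, 5.27% of its counts against 3.62% and 4.02% in the others. These genes have many processed pseudogenes, and the authors' counting could split reads between copies.

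Of 63 tested translation factors 12 (19%) were enriched and 6 (9.52%) depleted, the first above and the second below the shares among all genes. Among the subunits of eIF3, which brings the small ribosomal subunit to mRNA, 5 of 13 were enriched, among them EIF3D at 1.49 and EIF3A at 1.20. EIF3E, of the same complex, was depleted from 1039, 1069 and 1026 CPM to 294, 226 and 277 CPM (log2 fold change -1.97, SE 0.13, adjusted p = 2.72e-04). EIF2B5, a subunit of the exchange factor of eIF2, rose the most, with a log2 fold change of 1.88. EIF6, which keeps ribosomal subunits apart, fell the most, at -2.32. The elongation factor mRNAs EEF1A1 and EEF1G were depleted at -1.13 and -1.21. EEF2, among the 5 most abundant RNAs of the RIP, had 4770, 9228 and 6629 CPM there against 4631, 4632 and 4506 CPM (log2 fold change 0.58, adjusted p = 0.103). With total counts in place of scaling factors, 10 translation factors were depleted.

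Mitochondrial ribosomal proteins, encoded in the nucleus, leaned to depletion: 28 of 80 (35.0%) were depleted and 3 enriched. MRPL49 fell from 56.3, 46.3 and 50.0 CPM to 8.66, 10.2 and 10.1 CPM (-2.40), and MRPS12 was at -2.25. MRPS15 was the main exception and rose from 58.9, 55.6 and 58.8 CPM to 205, 189 and 348 CPM (log2 fold change 2.10, SE 0.25, adjusted p = 1.19e-03). Of the aminoacyl-tRNA synthetases, 5 of 17 mitochondrial enzymes were depleted, such as NARS2 at -1.45 and IARS2 at -1.34, against 1 of 20 cytosolic ones, a difference that was not tested. KARS1, which serves both compartments, was enriched at 1.14, and not without RIP replicate 3.

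Nuclear genes for the respiratory chain were among the most depleted mRNAs. Of 80 tested subunits 41 (51.2%) were depleted and 4 enriched, and 54 were lower. All 11 tested subunits grouped under complex IV were depleted, from COX4I1 at -1.05 to COX8A at -3.55. COX8A had 157, 134 and 151 CPM in shCONTROL and 11.2, 13.3 and 13.1 CPM in the RIP, an even loss in all 3 libraries (SE 0.12; adjusted p = 1.42e-04). SDHD, a membrane anchor of complex II, fell from 98.8, 82.4 and 86.3 CPM to 8.85, 4.73 and 8.15 CPM. Genes with an NDUF symbol varied more, from NDUFA4 at -3.20 to NDUFB10 at 1.85. NDUFB10 rose from 57.3, 46.2 and 53.5 CPM to 173, 146 and 246 CPM. ATP5F1B and ATP5F1A, the catalytic core of ATP synthase, were depleted at -1.94 and -1.03 (ATP5F1A not without RIP replicate 1), whereas ATP5ME was enriched at 1.43. Without RIP replicate 3, 2 subunits were enriched in place of 4.

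The proteasome list held 14 depleted and 3 enriched of 37 (37.8% and 8.11%), beside 13.6% and 11.1% of all genes. Of 17 tested subunits of the 20S core 12 were depleted and 1 enriched. The catalytic subunit PSMB5 fell from 64.9, 56.4 and 67.8 CPM to 9, 10.4 and 11.4 CPM (log2 fold change -2.62, SE 0.13, adjusted p = 2.04e-04), and PSMB6 and PSMB2 were at -2.49 and -2.18. Of the 6 ATPases of the 19S cap 2 were enriched, and of its 14 other subunits 2 were depleted, 3 higher and 4 lower, with a median of -0.08. PSMC5 rose from 82.5, 80.7 and 90.4 CPM to 234, 231 and 347 CPM (1.68), and PSMC3 was at 1.51. The difference between parts was noticed in these values and was not tested. Among 18 glycolytic enzymes only GAPDH and PGK1 were depleted. GAPDH (chromosome 12, 6534517 to 6538371) fell from 2593, 2423 and 2468 CPM to 426, 532 and 557 CPM (log2 fold change -2.30, SE 0.14, adjusted p = 2.42e-04). ENO1, nearly as abundant in the controls, was lower with a smaller log2 fold change of -0.86 (adjusted p = 0.0101).

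Transcripts of the secretory route did not move as 1 group. The most depleted belonged to the granules of myeloid cells: 11 of 15 (73.3%) were depleted, with a median log2 fold change of -1.60. LYZ, lysozyme (chromosome 12, 69348381 to 69354234), fell from 771, 649 and 716 CPM to 44.1, 33.7 and 58.3 CPM (log2 fold change -3.97, SE 0.23, adjusted p = 2.24e-04). PRTN3, the protease proteinase 3, fell from 2334, 1858 and 2340 CPM to 459, 517 and 415 CPM (-2.23). CFD, SRGN, ELANE and AZU1 were depleted at -3.22, -2.0, -1.95 and -1.35. LYZ and AZU1 are also 2 of the 12 myeloid markers, and they were the only depleted ones of them by this call.

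Lysosomal genes were depleted in 18 of 42 tested (42.9%). ATP6AP2, an accessory subunit of the proton pump, fell from 59.7, 63.5 and 59.3 CPM to 7.10, 5.77 and 8.72 CPM (-3.08). The membrane proteins LAMP2 and LAMP1 were at -2.55 and -1.98, and the lipase LIPA at -2.54. CTSH was the sole enriched member. It was at 0 in the controls and at 4.63, 0.973 and 1.01 CPM in the RIP, at least 26.3-fold higher. That bound rests on RIP replicate 1, and without it is 11.8-fold.

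The endoplasmic reticulum list held 7 enriched and 7 depleted of 32 (21.9% each), beside 11.1% and 13.6% of all genes. Its median of 0.06 was -0.05 with total counts. The abundant chaperones CANX, P4HB, CALR and HSP90B1 were enriched, at 1.16, 1.09, 1.28 and 1.38. CANX had 1039, 948 and 993 CPM in shCONTROL and 1998, 2223 and 2451 CPM in the RIP. The small translocon subunits SEC61G and SEC61B and the subunit SSR3 of the associated complex were depleted, at -2.86, -1.83 and -1.60, as was the stress transcription factor XBP1 at -1.62. The value of SEC61G was -3.67 without RIP replicate 1. Surface proteins leaned lower by adjusted p alone, with 17 of 38 (44.7%) lower, against 24.7% of all genes. The 6 depleted (15.8%) were near the 13.6% of all genes. B2M, the light chain of class I molecules, fell from 528, 521 and 497 CPM to 179, 166 and 205 CPM (-1.49), with CD53 at -1.48 and CD47 at -1.09 (-0.99 without RIP replicate 2). CD44, the hyaluronan receptor, was enriched at 1.15 (not without RIP replicate 1), and FLT3, the receptor tyrosine kinase of myeloid progenitors, was higher at 0.88 (309, 330 and 316 CPM against 545, 526 and 687 CPM). With total counts 10 surface genes were depleted.

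The mRNAs of splicing regulators were mostly higher in the RIP, by modest amounts. Of 37 tested SR and SR-related proteins 24 (64.9%) were higher and 1 lower, against 24.6% and 24.7% of all genes, and 7 were enriched. RBM6 rose from 77.2, 82.0 and 84.9 CPM to 249, 231 and 312 CPM (log2 fold change 1.70, SE 0.14, adjusted p = 3.72e-04). SRRM1, CLASRP, SRSF9 and PNISR were enriched at 1.61, 1.47, 1.3 and 1.11, PNISR not without RIP replicate 1. The 1 lower member was SRSF2, at 330, 315 and 306 CPM against 250, 191 and 229 CPM (log2 fold change -0.50, adjusted p = 0.0150), a call that was lost without shCONTROL replicate 1 or 2. SRRM2 and SON, the large scaffolds of nuclear speckles and the most abundant members, overlapped between groups. SRRM2 had 1006, 979 and 1048 CPM against 1098, 1811 and 770 CPM, and SON had 561, 537 and 539 CPM against 492, 626 and 463 CPM. Among the kinases that phosphorylate SR proteins 11 of 17 (64.7%) were higher and 5 (29.4%) enriched, beside 24.6% and 11.1% of all genes. SRPK2 rose from 31.3, 30.8 and 29.9 CPM to 81.4, 77.9 and 88.2 CPM (1.43), and SRPK1, CLK1 and PRPF4B were at 1.18, 1.22 and 1.03, the last below 1 without RIP replicate 1 or 3.

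Core spliceosome mRNAs were higher in 33 of 63 (52.4%) and lower in 14 (22.2%), beside 24.6% and 24.7% of all genes. Of the 63, 12 (19%) were enriched and 10 (15.9%) depleted, beside 11.1% and 13.6% of all genes. SNRNP25 of the minor spliceosome rose from 45.5, 34.8 and 41.7 CPM to 155, 133 and 206 CPM (2.02). PRPF3, CWC15 and SLU7 were enriched at 1.88, 1.88 and 1.61. The depleted side was led by small Sm and LSm proteins: 6 of 15 were depleted and 2 enriched. LSM2 fell from 48.8, 45.7 and 48.4 CPM to 9.34, 7.68 and 13.2 CPM (-2.24), with SNRPF at -1.89 and SNRPG at -1.45. SNRPB2 and PHF5A were at -1.61 and -1.53. Of 41 hnRNP genes 5 (12.2%) were enriched and 6 (14.6%) depleted, near the shares among all genes. HNRNPUL1 rose from 603, 573 and 605 CPM to 1627, 2582 and 1272 CPM (log2 fold change 1.62, SE 0.27, adjusted p = 3.88e-03), and the paraspeckle proteins PSPC1 and NONO were at 1.41 and 1.23. HNRNPF fell from 332, 318 and 343 CPM to 77.3, 86.7 and 67.2 CPM (-2.10), with KHDRBS1 and PTBP3 both at -1.71.

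Of 25 tested genes for BCLAF1, THRAP3 and their known partners 15 (60%) were higher and 2 (8%) lower. The shares among all genes were 24.6% and 24.7%. Beside BCLAF1, CCAR1, SAP18, NXF1 and THOC1 were enriched, at 1.25, 1.10, 1.10 and 1.02. Without RIP replicate 3 SAP18 and THOC1 were at 0.84 and 0.92, and THOC1 also fell short without shCONTROL replicate 1. NXF1 is the main mRNA export receptor and THOC1 a subunit of the THO export complex. DDX39B, the export helicase, was higher at 1175, 1250 and 1165 CPM against 587, 595 and 619 CPM. ALYREF, the adaptor that loads NXF1, was depleted from 104, 82.1 and 94.8 CPM to 31.1, 35.5 and 38.7 CPM (log2 fold change -1.42, SE 0.13, adjusted p = 5.40e-04). With total counts 2 of the 25 were enriched in place of 5. In the RNA decay list EXOSC10, the nuclear exosome's catalytic subunit, was enriched from 113, 101 and 107 CPM to 299, 271 and 403 CPM (1.60), and the nonsense-mediated decay factor UPF2 was at 1.11. The core exosome subunits EXOSC4 and EXOSC5 were depleted at -1.72 and -1.17.

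Chromatin regulators were among the groups with the largest share of enriched genes. Of 55 tested histone methyl- and acetyl-modifying enzymes 22 (40.0%) were enriched, 41 higher and 1 lower. EP300 (chromosome 22, 41092592 to 41180077), an acetyltransferase and coactivator, rose from 268, 266 and 276 CPM to 1015, 1792 and 765 CPM. Every RIP library was above every control, and the log2 fold change was 2.14 (SE 0.32; adjusted p = 2.72e-03). KAT6B had 11.1, 39.4 and 32.3 CPM in shCONTROL and 190, 122 and 148 CPM in the RIP (2.47). SETD1A, a methyltransferase of histone H3, was at 2.29, HDAC1 at 1.83, NSD1 at 1.61 and SETD2 at 1.53. RIP replicate 2 was the highest of the 3 for EP300, SETD1A and NSD1, and RIP replicate 3 for HDAC1. KMT2A, the gene rearranged in this leukaemia, had 119, 124 and 112 CPM against 127, 177 and 94.6 CPM, and its groups overlapped (log2 fold change 0.17, adjusted p = 0.567; -0.10 without RIP replicate 2).

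Subunits of chromatin remodelling complexes gave 15 enriched (39.5%) and 1 depleted of 38. All 8 tested CHD helicases were higher, and 5 of them enriched. SMARCA4, the ATPase of the SWI/SNF complex, rose from 229, 206 and 267 CPM to 774, 1542 and 556 CPM (log2 fold change 2.03, SE 0.39, adjusted p = 6.71e-03). SMARCB1, CHD7 and CHD8 were at 1.82, 1.74 and 1.35. HELLS was depleted at -1.01, and fell short of that call without RIP replicate 2 or 3. Transcripts of zinc finger genes, by contrast, had a median of 0.01 that changed sign with the scaling, and 24 of 350 (6.86%) were enriched and 21 (6%) depleted, fewer than among all genes.

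**Figure D3:**
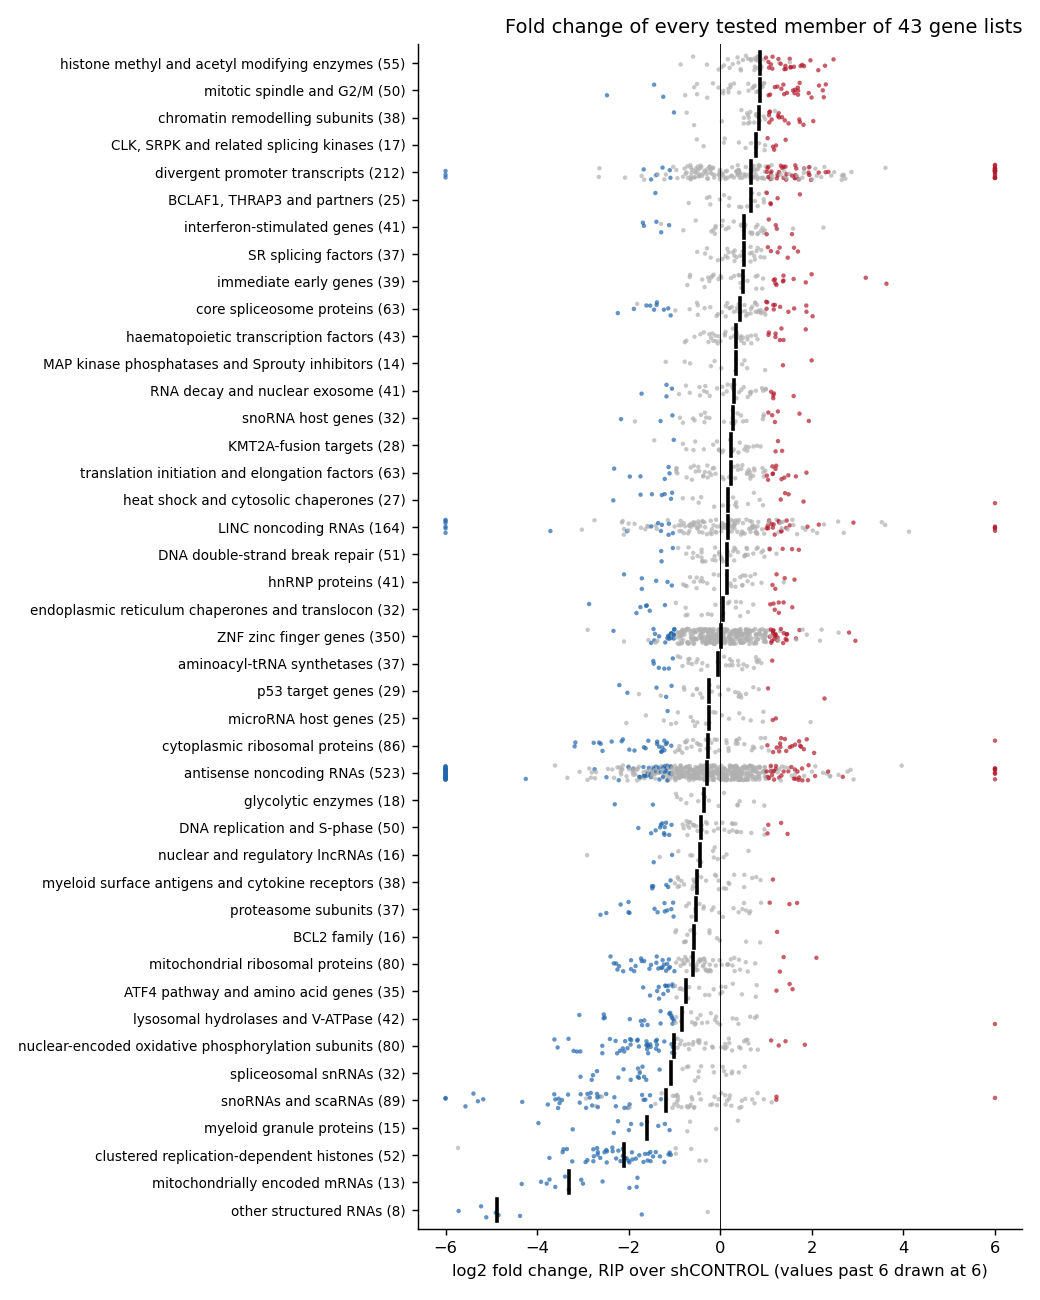
Log2 fold change of RIP over shCONTROL for each tested member (points) of 43 gene lists, with the number tested in brackets, enriched members in red, depleted members in blue and the list's median as a black bar. Medians run from -4.87 for structured RNAs to 0.88 for histone methyl- and acetyl-modifying enzymes, and many lists hold points on both sides of 0.

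Transcription factors of blood cells were enriched in 8 of 43 (18.6%), beside 11.1% of all genes. By adjusted p alone 18 (41.9%) were higher and 3 (6.98%) lower, beside 24.6% and 24.7% of all genes. MYB, a driver of progenitor growth, rose from 611, 588 and 606 CPM to 1391, 1226 and 1552 CPM (log2 fold change 1.21, SE 0.12, adjusted p = 7.13e-04). MYC, with 675, 641 and 673 CPM against 813, 1128 and 797 CPM, did not pass the test (0.46; adjusted p = 0.0564). MXI1, a repressor that opposes MYC, was enriched at 1.30. Targets of KMT2A fusions gave 3 enriched and 1 depleted of 28 (10.7% and 3.57%), no more than the share among all genes. CDK6, the most abundant of them with MYB, was lower at -0.81.

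Immediate early genes, which respond to growth signals and stress without new protein, were enriched in 12 of 39 (30.8%), higher in 19 and lower in 5. ARC rose from 2.34, 2.18 and 1.5 CPM to 13.3, 23.2 and 38.0 CPM, and FOSB (chromosome 19, 45467996 to 45475179) from 3.03, 2.2 and 2.75 CPM to 15.0, 23.4 and 33.9 CPM. Their log2 fold changes were 3.63 (SE 0.44; adjusted p = 1.27e-03) and 3.18 (SE 0.34; adjusted p = 8.06e-04), and RIP replicate 3 was the highest for both. JUN rose from 12.9, 15.9 and 12.8 CPM to 39.6, 64.1 and 48.4 CPM (1.87). PPP1R15A, GADD45B, DUSP1, ATF3 and NR4A1 were enriched at 1.60, 1.38, 1.37, 1.23 and 1.19, NR4A1 only with RIP replicate 2 (0.96 without it). EGR1 was not called, at 36.4, 36.8 and 28.9 CPM against 39.8, 69.7 and 34.9 CPM, and MCL1 was lower at -0.72.

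Genes of mitosis were enriched in 21 of 50 (42.0%) and depleted in 3. All 9 tested kinesins, the motors of the spindle, were higher, and 7 were enriched. KIF20A rose from 61.9, 54.0 and 56.3 CPM to 250, 245 and 355 CPM (log2 fold change 2.31, SE 0.17, adjusted p = 3.35e-04). TOP2A (chromosome 17, 40388525 to 40417896), the topoisomerase that untangles chromosomes, rose from 435, 427 and 425 CPM to 1227, 1448 and 1606 CPM (1.73). KIF4A, PRC1, TPX2, HMMR and NUSAP1, which build and bundle the spindle, were at 2.26, 2.24, 2.16, 1.99 and 1.93. The kinase AURKB and the cyclin CCNB1 were at 1.70 and 1.63. MAD2L1, CDK1 and CCNA2 went the other way: MAD2L1, a spindle checkpoint protein, fell from 89.3, 88.0 and 88.1 CPM to 16.9, 14.3 and 16.6 CPM (-2.47), and the others were at -1.44 and -1.25.

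Genes of DNA replication leaned lower, with 12 of 50 (24%) depleted and 4 (8%) enriched, beside 13.6% and 11.1% of all genes. FEN1, the flap nuclease, fell from 106, 89.0 and 103 CPM to 26.2, 30.7 and 29.4 CPM (-1.79). PCNA and TYMS were at -1.3 and -1.31. MCM4 fell from 860, 756 and 842 CPM to 403, 444 and 328 CPM (-1.06, and -0.95 without RIP replicate 3), whereas MCM7 had 410, 370 and 403 CPM against 420, 490 and 580 CPM (0.33; adjusted p = 0.0962). RFC1, the large subunit of the clamp loader, was enriched at 1.47 and POLE3 at 1.33. With total counts 2 replication genes were enriched.

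For double-strand break repair, a group often named with BCLAF1, 4 of 51 (7.84%) were enriched and 3 (5.88%) depleted, below the shares among all genes. By adjusted p alone 16 (31.4%) were higher and 10 (19.6%) lower, beside 24.6% and 24.7% of all genes. FANCD2 rose from 112, 119 and 114 CPM to 366, 313 and 455 CPM (log2 fold change 1.72, SE 0.15, adjusted p = 5.00e-04), and PARP2 was at 1.57. PRKDC, the DNA-dependent kinase and by far the most abundant of the list, was lower at 1879, 2187 and 1859 CPM against 3048, 2948 and 2999 CPM (-0.60). Targets of p53 gave 2 enriched and 5 depleted of 29 (6.9% and 17.2%), beside 11.1% and 13.6% of all genes. PLK2 rose from 5.56, 4.90 and 5.34 CPM to 22.4, 22.2 and 32.0 CPM (2.28), CCNG1 fell from 178, 184 and 169 CPM to 39.3, 35.5 and 40.6 CPM (-2.20), and MDM2 was near equal (300, 296 and 290 CPM against 330, 361 and 310 CPM; adjusted p = 0.161).

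In the BCL2 family, 8 of 16 tested genes (50%) were lower and 3 (18.8%) higher, beside 24.7% and 24.6% of all genes. Only 1 (6.25%) was enriched and 0 were depleted, beside 11.1% and 13.6% of all genes. BCL2 itself had 390, 417 and 390 CPM in shCONTROL and 408, 461 and 272 CPM in the RIP, and the groups overlapped (log2 fold change -0.07, adjusted p = 0.786). MCL1 was at 354, 354 and 328 CPM against 202, 236 and 191 CPM, and the pro-apoptotic BCL2L11 at 77.3, 68.2 and 70.6 CPM against 38.1, 42.1 and 29.3 CPM (-0.98). BCL2A1 was enriched at 1.24.

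Interferon-stimulated genes gave 5 enriched and 5 depleted of 41 (12.2% each), near the shares among all genes. By adjusted p alone 12 (29.3%) were higher and 6 (14.6%) lower, beside 24.6% and 24.7% of all genes. The list's median log2 fold change was 0.51, with 0.77, 0.63 and 0.22 in RIP replicates 1 to 3. The enriched count was 3 without RIP replicate 2 or shCONTROL replicate 3 and 8 without shCONTROL replicate 2. IFIT2 and IFIT3 were enriched at 1.21 and 1.06 (IFIT3 not without RIP replicate 2 or shCONTROL replicate 3), and IFI6, BST2 and ISG15 depleted at -1.69, -1.67 and -1.29. Of the genes of the ATF4 pathway and amino acid supply 12 of 35 (34.3%) were depleted, among them the serine synthesis enzyme PSAT1, from 327, 345 and 323 CPM to 92.7, 95.8 and 121 CPM (-1.68), and SLC7A11 and SHMT2 at -1.53 and -1.34. ATF4 itself was higher, at 836, 865 and 1100 CPM against 550, 553 and 533 CPM (0.78, adjusted p = 4.55e-03), and DDIT3 and JDP2 were enriched at 1.52 and 1.58. Among cytosolic chaperones DNAJB1 and STIP1 were enriched at 1.82 and 1.49, and HSPE1, the mitochondrial co-chaperonin, fell from 99.9, 76.7 and 97.9 CPM to 19.6, 13.3 and 21.5 CPM (-2.34). Subunits of 1 particle, the CCT chaperonin, parted: CCT3 was enriched at 1.42 while CCT4, CCT7 and CCT2 were depleted at -1.74, -1.49 and -1.21.

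Outside the RNA class lists, the genes with the largest changes and at least 200 counts on average came from several groups. The respiratory chain subunits SDHD and COX8A were among the lowest. The 12 highest were ARC, FOSB, LCDR, ZNF865, TPM4P2, ZNF232, NCOA6, ANAPC15, NBPF14, NBPF26, AHDC1 and GPATCH4. NCOA6 (chromosome 20, 34714774 to 34825651), a coactivator found in complexes with H3K4 methyltransferases, was the most abundant, at 78.1, 71.0 and 76.5 CPM in shCONTROL and 537, 591 and 447 CPM in the RIP (log2 fold change 2.80, SE 0.13, adjusted p = 1.82e-04). ZNF865 rose from 34.5, 35.1 and 36.4 CPM to 210, 347 and 263 CPM, and ANAPC15, a subunit of the anaphase-promoting complex, from 12.9, 19.8 and 18.4 CPM to 100, 98.4 and 155 CPM. AHDC1 was the least certain, at 54.2, 24.6 and 13.3 CPM in the RIP. Leaving out shCONTROL replicate 1 or 3 ended its call, and its log2 fold change went from 2.68 to 1.98 without RIP replicate 1. NBPF14 and NBPF26 are near-identical copies and TPM4P2 is a pseudogene, so their reads may belong to relatives.

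The 12 lowest were RN7SL471P, LYZ, CYP51A1, PCLAF, MTND2P28, EBPL, TSPO, SDHD, COX8A, RPS13P2, CREG1 and TMEM256. PCLAF, a partner of PCNA, fell from 146, 140 and 129 CPM to 9.91, 8.86 and 8.89 CPM (log2 fold change -3.91, SE 0.10, adjusted p = 1.42e-04). TSPO, a protein of the outer mitochondrial membrane, fell from 89.9, 84.8 and 94.9 CPM to 5.51, 6.99 and 8.28 CPM (-3.70), and CREG1, a secreted lysosomal glycoprotein, from 88.3, 84.1 and 83.8 CPM to 8.39, 7.75 and 6.77 CPM (-3.48). The RIP libraries of these 3 genes lay close together and far from the controls. CYP51A1, of sterol synthesis, was uneven, at 1.71, 18.3 and 3.29 CPM in the RIP, and its log2 fold change of -3.96 was -5.58 without RIP replicate 2. RN7SL471P, MTND2P28 and RPS13P2 are pseudogenes of RNAs that were depleted in their own right.

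Protein-coding genes that span more of the genome were more often enriched and less often depleted. The 11034 tested protein-coding genes were placed in 10 bins of nearly equal size by the distance from gene start to gene end, introns included. The median log2 fold change went up at each step, from -0.40 in the shortest bin (0.276 to 4.97 kb) to 0.45 in the longest (139 to 2058 kb). The share of depleted genes went from 24.6% to 3.53%, and that of enriched genes from 8.79% to 16%. Spearman's rho between span and log2 fold change across genes was 0.22, and it was 0.24, 0.24 and 0.17 in RIP replicates 1, 2 and 3. Genes are not independent, and span goes together with level (rho 0.19), so these values describe the comparison only. Within 5 bins of mean CPM rho was 0.15 to 0.22, and among the 9406 genes in no list it was 0.22. Lists also differed from genes of like span: against the median of genes of like span, histones were at -1.71, respiratory chain subunits at -0.82 and myeloid granule genes at -1.32, while mitotic genes were at 0.84 and immediate early genes, with a median span of 4.92 kb, at 0.89. Chromatin remodelling subunits went from a median of 0.85 to 0.54 when measured this way.

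**Figure D4:**
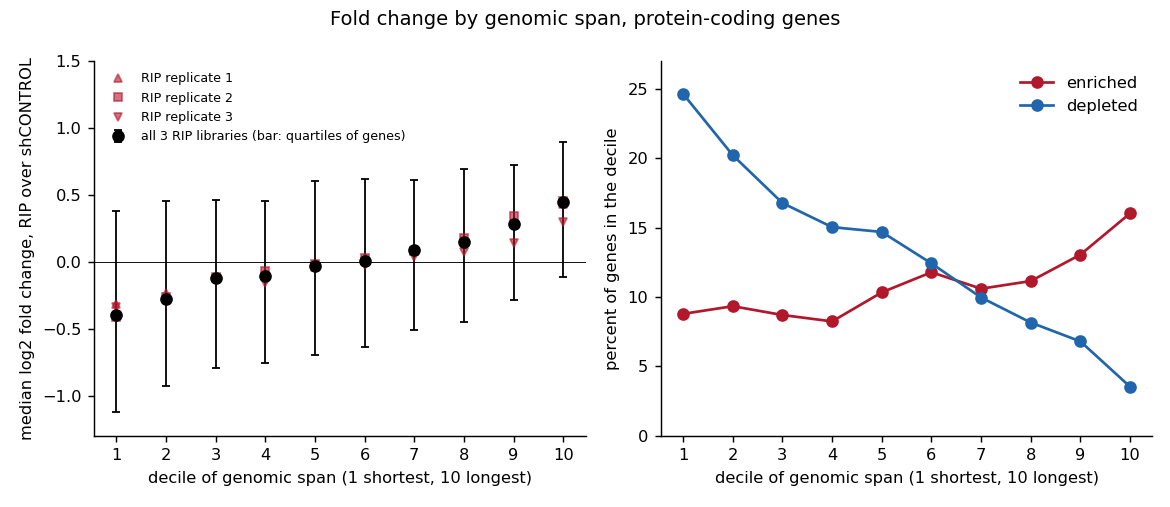
Left, median log2 fold change of RIP over shCONTROL by bin of genomic span for 11034 protein-coding genes, in all RIP libraries together (black, bars from the lower to the upper quartile of genes) and in each RIP library (red). Right, percent of genes enriched (red) and depleted (blue) in each bin: depletion goes from 24.6% to 3.53% and enrichment from 8.79% to 16%.

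Base composition at the start of the transcript showed a weaker pattern. For 6517 of these genes RefSeq (GRCh38.p14) gave the first 50 transcribed bases. Where more than 80% of them were G or C, 18.8% of 431 genes were enriched and 8.35% depleted, with a median log2 fold change of 0.35. Where at most 50% were G or C, 11.8% of 399 genes were enriched and 16.8% depleted. Across all 6517 genes rho was 0.07, so only the most GC-rich starts stood apart, and their median span of 30.3 kb was also the longest of the 5 bins.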

How the data were processed

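Values are the estimated counts that the authors deposited as a single table, whole numbers that were not normalized. The submitters' processing notes name STAR 2.7.11b, StringTie 2.2.3 and hg38, with no roles, and the annotation and counting settings are not given in the sources used here. Per the labels, total RNA libraries were depleted of ribosomal RNA, stranded and sequenced in paired ends. Of the table's gene entries 39048 had a symbol, 10 gained one from the identifier table (56012 identifiers matched) and 37586 matched a RefSeq biotype (GRCh38.p14). An entry that names no gene (0 to 3.14% of a library) was left out, and 0 columns of sample values were unmapped. A 0 in this table can be a failed estimate: 226 genes in the RIP and 165 in shCONTROL had a 0 beside at least 100 counts in another replicate.

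The 6 libraries were fitted with edgeR 4.0.16 (R 4.3.3): filterByExpr by group, TMM scaling, group as the only term, the quasi-likelihood F-test with Benjamini-Hochberg adjustment over all tested genes (0.05), and the default prior count for fold changes. The procedure was tested on simulated data. CPM are TMM-scaled. Each standard error was derived from the fold change and its F value. Values per RIP library use log2 ratios with 0.5 CPM added. The floor of 3 counts equals 0.0850 to 0.116 CPM and covers counting error only.

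The comparison and its 43 gene lists were chosen with earlier results of these data known, and lists carry no test of their own. Pseudogenes were taken out of lists made by symbol pattern after the values were seen. Genes were named by a rule (186 genes): BCLAF1 and THRAP3; the 12 highest and 12 lowest called genes with a mean of at least 200 counts, above 0 throughout, with groups that do not overlap, outside the RNA class lists; the highest, the lowest and the 2 most abundant of each list; and the 5 largest shares of counts in each group. The 12 highest and 12 lowest also had to have a symbol that holds no hyphen and does not start with LINC or MIR. A further 118 genes, with COX4I1 and H1-4, were chosen after their values were seen, as were the splits of lists into subunits and the bins of base composition. As alternatives, 14 planned fits were made (DESeq2 1.42.0 among them) and 2 were added after seeing the data. Gene spans are genomic and include introns. Some genes of the lists are not reported here by name.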

Additional observations from a re-analysis of the deposited data

How the results depend on the processing

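The counts of 1853 enriched and 2281 depleted genes stayed within 1.5 times under other scalings, DESeq2, other filters, another prior count and each library left out. With single libraries left out they ran from 1764 to 1990 and from 2058 to 2906, and among genes above 0 in all 6 libraries they were 1661 and 2219. They were 732 and 1142 when the fold change was tested against a log2 of 1, and 4107 and 4124 by adjusted p alone. Total counts in place of scaling factors moved the median of all genes from -0.05 to -0.17 and gave 1488 enriched and 2640 depleted genes. Same-numbered libraries of the groups did not deviate together (r = -0.02, 0.01 and -0.00). No library correlated best with the same-numbered library of the other group, so the numbers were not taken as pairs. A replicate block gave 1597 and 1879 genes. Named values near 0 changed sign. GARS1-DT (0.00 in the reported fit) was 0.0042 with DESeq2 and with RLE scaling, 0.0023 with no filter, 0.0013 with the replicate block and -0.054 to 0.092 with single libraries left out. SLC7A5 was -0.011 among genes above 0 throughout, -0.026 with the block, -0.11 with total counts and -0.27 to 0.19 with single libraries left out. With total counts LINC00926, MALAT1 and ITGAL were -0.069, -0.056 and -0.0028. With single libraries left out they ran from -0.074 to 0.13, from -0.17 to 0.19 and from -0.18 to 0.29, BCL2 from -0.23 to 0.12, SON from -0.19 to 0.036, KMT2A from -0.10 to 0.36 and SRRM2 from -0.11 to 0.53. The medians of endoplasmic reticulum and zinc finger genes were -0.054 and -0.10 with total counts. With the block the zinc finger and hnRNP medians were -0.0077 and -0.052, and the hnRNP median was -0.14 with pseudogenes kept. With single libraries left out these 3 medians ran from -0.045 to 0.14, from -0.045 to 0.092 and from -0.041 to 0.16, and that of aminoacyl-tRNA synthetases from -0.22 to 0.071.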

Other observations

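Grouped by RefSeq biotype, 53 of 252 transcribed pseudogenes (21.0%) were enriched and 23 (9.13%) depleted, beside 1192 (10.8%) and 1459 (13.2%) of 11034 protein-coding genes. The difference was not tested, and reads of a pseudogene may come from its parent gene. Protein-coding genes made up 86.8% ± 0.226 of shCONTROL counts and 92.5% ± 0.738 of RIP counts (SD, n = 3), while genes with no RefSeq match went from 4.50% to 1.81%. Genes with no match included mitochondrially encoded mRNAs such as MT-CO1 and MT-CO3, which the protein-coding share therefore leaves out. The mitochondrial class alone went from 2.77% to 0.289%, so much of the fall among unmatched genes is that depletion again. Intergenic noncoding RNAs of the LINC series were enriched in 22 of 164 (13.4%) and depleted in 15 (9.15%), beside 11.1% and 13.6% of all genes. Of the 164, 10 were off in 1 group, and 8 were depleted among genes with counts in every library.

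Several noncoding RNAs were seen in 1 group only, by the floor of 3 counts per library. HEXA-AS1 was at least 67.7-fold higher and LINC01144 at least 27.1-fold higher in the RIP. LINC01293 had 2.03, 2.38 and 2.53 CPM in shCONTROL and 0 in every RIP library, at least 21.8-fold lower, and PDC-AS1 was at least 16.4-fold lower. A 0 in this table can be a failed estimate, so these bounds rest on the authors' counting.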
